A study of Bos taurus with 92 samples.

Results

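Expression was followed embryo by embryo in 15 single bovine blastocysts made by nuclear transfer (NT), of 46 samples in the series. All embryos labelled NT were taken, 7 whose labels begin with 3_ (3_1 to 3_6 and 3_9) and 8 whose labels begin with 2_ (2_1 to 2_4, 2_7 to 2_9 and 2_11). The labels do not explain these prefixes, and give neither age, sex, donor line nor hybridisation date. For comparison the series holds 14 blastocysts obtained by artificial insemination (AI), 15 obtained by in vitro fertilisation (IVF) and 2 donor cell samples. Each embryo was hybridised against a common reference RNA on 2 spotted cDNA arrays with the dyes swapped, so that the NT embryos account for 30 of 92 arrays. Embryo RNA had been amplified linearly before labelling, and differences in RNA amount or amplification between embryos are part of every spread given here and cannot be told apart from differences in transcript level.

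In nuclear transfer the nucleus of a somatic cell is placed in an oocyte without its own, and the oocyte's factors must turn off the somatic programme and start the embryonic one. The blastocyst that results has an outer trophectoderm, which carries keratins, desmosomes and later secretes proteins to the mother, and an inner cell mass. Embryos made in the same way are known to differ in how far this conversion goes.

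A value is the log2 ratio of embryo to reference, centred so that the median probe of each array is 0. That the deposited ratio is Cy5 over Cy3 is likely, not certain. The mean of the 2 arrays gives the embryo's value, and what the 2 arrays differ by gives the dye-swap error. The embryo SD is the spread of the embryo values that remains after the error is taken out, on the log2 scale. The 2 arrays of an NT embryo correlated with r from 0.638 to 0.704 over probes, and 3.56% to 5.51% of spots were missing. The trophectoderm keratins KRT18 and KRT19 were high against the reference, with medians of 2.34 and 2.00. Not all trophectoderm genes were high: TFAP2A (-0.72), ATP1B1 (-0.35), TEAD4 (-0.28) and ELF3 (-0.12) had NT means below 0. The fibroblast genes VIM (median -4.52) and COL1A2 (median -3.88) were low in all 15 NT embryos, with mean differences of NT minus donor cells of -4.48 and -5.26. COL3A1 (mean -5.16) and DCN (-3.92) were low too. Other fibroblast and matrix genes were not as low, with means of 0.96 for THY1, 0.08 for TPM2, -0.08 for COL6A1 and -0.59 for TAGLN.

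Of 4347 genes, 1744 (40.1%) varied among NT embryos beyond the dye-swap error (moderated F test, adjusted p under 0.05; 2158 before adjustment). With arrays as deposited, without centring, 202 genes passed. The median embryo SD was 0.277 over all genes, against a median error SD of 0.236, and 48 of the genes that passed had an embryo SD of at least 1. The same test called 1969 of 4287 genes (45.9%) in AI and 1784 of 4361 (40.9%) in IVF embryos. In the 4260 genes tested in all kinds, 1739 passed in NT and 1968 in AI embryos, of which 1289 were shared, 74.1% of the NT and 65.5% of the AI genes. With IVF embryos, 1205 were shared, 69.3% of the NT and 67.7% of the IVF genes. Where a gene had different probes, these correlated over the NT embryos with a median r of 0.53 in 323 genes that passed. The median was 0.07 in 434 that did not, as a description without a test. The F test used the mean of these same probes, and probes that disagree lower the spread of that mean. The contrast is therefore in part built in.

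The most variable genes coded for a receptor kinase (TEK), a desmosomal cadherin (DSC2), ubiquitin ligase subunits and enzymes, among others. The 30 genes of largest embryo SD (1.068 to 1.499) were chosen among genes that passed the F test with all 15 embryos measured. Their adjusted p in this test ran from 1.28e-08 to 0.0205. The last of them, HMOX1, had an embryo SD of 1.068 and the next gene, MAN1A2, just outside, had 1.065. In 2 of the 30, DSC2 and DAPP1, 1 embryo gave more than 50% of the summed squared deviation, as in 117 of 1717 genes (6.81%) that passed with all 15 embryos. Of the 30, 27 also passed in AI embryos, beside 74.1% of all genes that passed in NT embryos. In IVF embryos 26 passed, beside 69.3%. In both kinds 25 passed, and the share of all genes that did so was not counted.

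**Figure D1:**
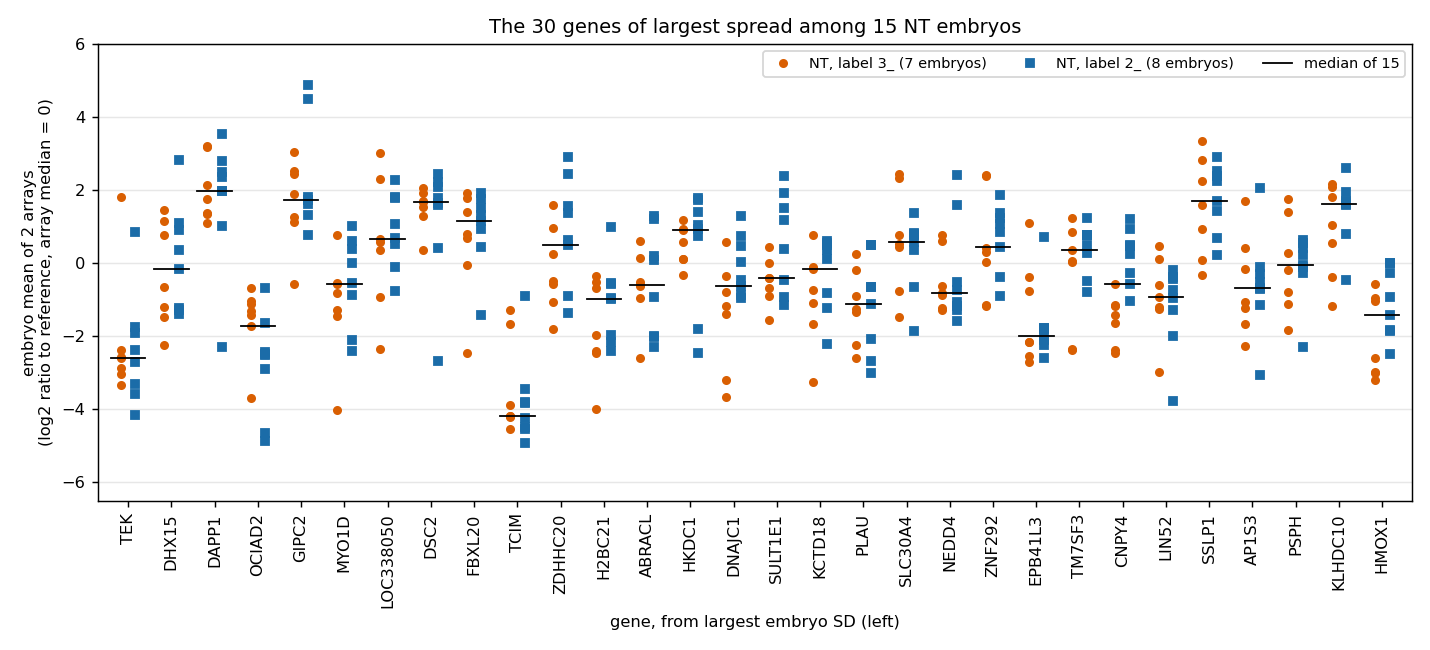
Values of the 30 genes of largest embryo SD in each NT embryo (log2 ratio to the reference; circles, 7 embryos of label 3_; squares, 8 of label 2_; line, median of 15), genes ordered from left by embryo SD. TEK stands near -2.60 in most embryos and at 1.82 in 3_2 and 0.86 in 2_1, and DSC2 at -2.68 in 2_8 alone.

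TEK, the receptor tyrosine kinase for angiopoietins, had the largest embryo SD (1.499, adjusted p = 0.000229). Its values ran from -3.35 to 1.82 with a median of -2.60 in 3_ embryos, and from -4.16 to 0.86 with a median of -2.53 in 2_ embryos. Embryos 3_2 and 2_1 stood above the other 13, and lowest and highest were 63.1-fold apart. The lowest, 2_9, had -5.9 on its Cy5 and -2.42 on its sign-turned Cy3 array, so the fold range rests in part on arrays that differed. EPB41L3, a protein that links membrane and cytoskeleton, was likewise high in 3_5 (1.09) and 2_1 (0.73), and between -2.70 and -0.39 in the other 13. TCIM was high in 2_8 (-0.89), 3_3 (-1.30) and 3_4 (-1.67), and between -4.93 and -3.45 in the other 12. NEDD4, a ubiquitin ligase, reached 2.40 in 2_11 and 1.59 in 2_9, with a median of -0.82. GIPC2, a PDZ scaffold protein, reached 4.89 in 2_3 and 4.48 in 2_11, against a median of 1.73.

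DSC2, a cadherin of desmosomes, ran from 0.37 to 2.07 with a median of 1.68 in 3_ embryos, and from -2.68 to 2.44 with a median of 1.71 in 2_ embryos. The value of 2_8 lay below the next lowest embryo by more than all others differed, and 73.2% of the summed squared deviation came from it. Without 2_8 the embryo SD was 0.587 in place of 1.25 (adjusted p = 6.32e-05). DAPP1, an adaptor that binds membrane phosphoinositides, behaved alike, at -2.31 in 2_8 and 1.01 to 3.53 in the other 14. Its embryo SD without 2_8 was 0.785 in place of 1.38 (adjusted p = 5.48e-05). HKDC1, a hexokinase-like enzyme, was low in 2_8 (-2.47) and 2_7 (-1.81) and ran from -0.33 to 1.78 elsewhere. OCIAD2 was lowest in 2_7 (-4.86), then in 2_8 (-4.64) and 3_6 (-3.69). The histone gene H2BC21 went the other way, with its highest value in 2_8 (0.98) and its lowest in 3_5 (-3.98).

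Other embryos stood apart for other genes. FBXL20, an F-box protein of ubiquitin ligases, stood at -2.45 in 3_9 and -1.41 in 2_11 with a median of 1.16, and its 2 probes correlated with r = 0.97 over the NT embryos. The unconventional myosin MYO1D was lowest in 3_9 as well (-4.01, median -0.58), and so were the co-chaperone DNAJC1 (-3.65, median -0.63) and the RNA helicase DHX15 (-2.24, highest 2.83 in 2_11). The 2 arrays of 3_9 differed for MYO1D (-5.16 on Cy5, -2.86 on sign-turned Cy3) and DNAJC1 (-4.91 and -2.40). DNAJC1 was nearly as low in 3_4 (-3.20), where the arrays also differed (-5.08 and -1.32). Embryo 3_2 was the lowest of the 15 for 5 of the 30 genes, KCTD18 (-3.26), CNPY4 (-2.45), TM7SF3 (-2.38), ZDHHC20 (-1.79) and KLHDC10 (-1.18). LIN52, a subunit of the DREAM complex that represses cell cycle genes, was lowest in 2_3 (-3.76) and 3_4 (-2.98). AP1S3, an adaptor subunit of vesicle coats, had the weakest array agreement of the 30 (r = 0.53) and lost its call without embryo 2_1 (adjusted p = 0.0640), without 3_6 and with the plain F test.

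Other genes of the 30 were graded over the embryos. PLAU, the urokinase-type plasminogen activator, ran from -2.61 to 0.25 with a median of -1.26 in 3_ embryos, and from -3.002 to 0.51 with a median of -0.89 in 2_ embryos. HMOX1, which degrades heme, ran from -3.19 to -0.57 with a median of -2.61 in 3_ embryos, and from -2.50 to 0.01 with a median of -1.17 in 2_ embryos. SULT1E1, the oestrogen sulfotransferase, reached 2.38 in 2_11 and 1.92 in 2_3 and was lowest in 3_9 (-1.56). The values of both labels overlapped in each of these genes. ABRACL, SLC30A4, ZNF292 and LOC338050 made up the rest of the 30, with embryo SDs between 1.12 and 1.26.

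**Figure D2:**
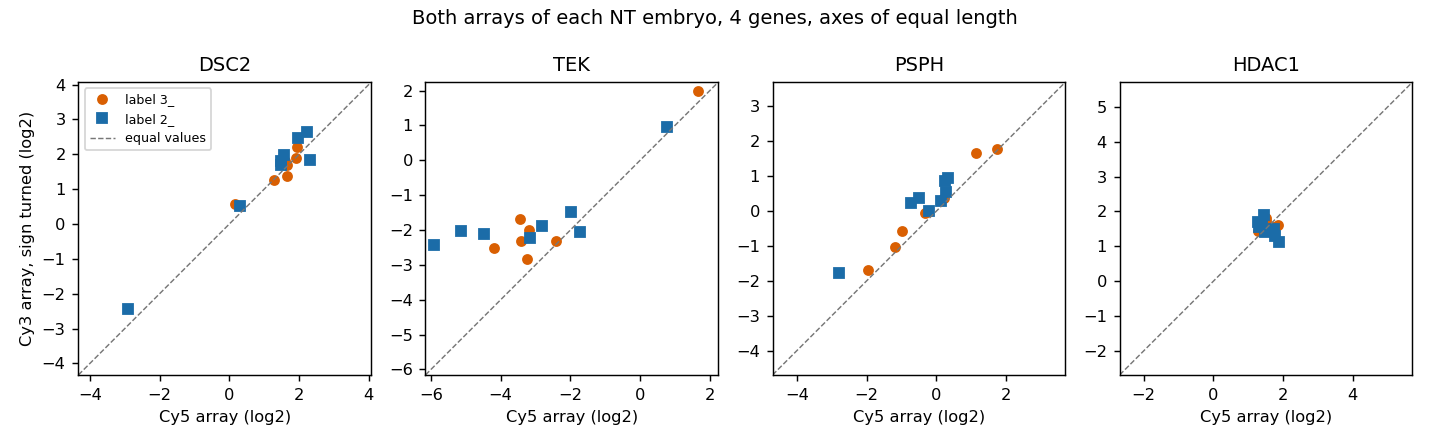
The Cy5 array (x axis) against the sign-turned Cy3 array (y axis) of each NT embryo for DSC2, TEK, PSPH and HDAC1, in log2 units with axes of equal length (circles, label 3_; squares, label 2_; dashes, equal values). DSC2 follows the line (r = 0.98). PSPH runs along it with r = 0.96 but lies above it, the sign-turned Cy3 value being the higher in every embryo. TEK shows more scatter (0.85), and the HDAC1 values form 1 cloud.

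Trophectoderm genes varied in 8 of 12 measured members (66.7%, beside 40.1% of all genes), with a median embryo SD of 0.369 beside 0.277 over all genes. The members past the test were DSC2, SSLP1, TFAP2A, ATP1B1, GATA3, KRT18, TFAP2C and KRT8. SSLP1, a small secreted protein of the bovine trophoblast, ran from -0.32 to 3.33 with a median of 1.59 in 3_ embryos, and from 0.22 to 2.91 with a median of 1.97 in 2_ embryos. TFAP2A, a transcription factor of the lineage, ran from -1.82 in 3_5 to 0.61 in 2_3. KRT18 was 0.91 in 2_8 and 1.74 to 2.57 in the others, and 2_8 gave 56.5% of its squared deviation. KRT19 did not pass (adjusted p = 0.110) but was also lowest in 2_8, at 1.09. The mean over the 12 genes was lowest in 2_8 (-0.52 relative to the NT mean) and next in 2_7 (-0.43). DSC2 carried the value of 2_8: without this gene the mean was -0.20 in 2_8 and lowest in 2_7 (-0.38), followed by 2_9 (-0.32) and 3_2 (-0.30).

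Of 14 measured genes for secreted products of the trophoblast, 6 (42.9%) passed, near the 40.1% of all genes: SSLP1, the pregnancy-associated glycoproteins PAG11, PAG12 and PAG17, and the Kunitz-domain proteins TKDP1 and TKDP4. PAG12 ran from 0.97 to 2.31 with a median of 1.65 in 3_ embryos, and from -0.57 to 3.12 with a median of 2.34 in 2_ embryos. PAG17 ran from 0.96 to 1.73 in 3_ embryos and from -0.61 to 3.09 in 2_ embryos, and 2_8 was lowest for both genes. The list mean was lowest in 2_8 (-0.60) and 2_7 (-0.45) and highest in 2_11 (0.49), relative to the NT mean. These genes have close relatives, and whether their cDNA probes also read those was not tested. PTGS2, the inducible prostaglandin synthase, ran from 4.12 in 2_8 to 5.45 in 2_3.

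Inner cell mass genes were few: 5 were measured and STAT3, KLF4 and SPP1 passed (3 of 5, beside 40.1% of all genes). Their list mean was highest in 2_7 (0.38) and 2_8 (0.31) and lowest in 3_9 (-0.35). The list means of the 2 arrays correlated over embryos with r = 0.38 here, against 0.89 for the trophectoderm and 0.91 for the secreted products. Fewer cells of a type and less transcript per cell cannot be told apart in a whole embryo. Of 8 genes of the primitive endoderm, the layer that later lines the yolk sac, 6 passed (75%, beside 40.1% of all genes), with a median embryo SD of 0.418. APOA1 and GATA6 did not pass. DAB2, an endocytic adaptor of this layer, was 0.19 in 3_4 against a median of 2.45. The list mean of 3_4 was -0.14, and the lowest list mean was in 2_3 (-0.29). The NT mean of DAB2 minus that of the donor cells was 0.07.

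**Figure D3:**
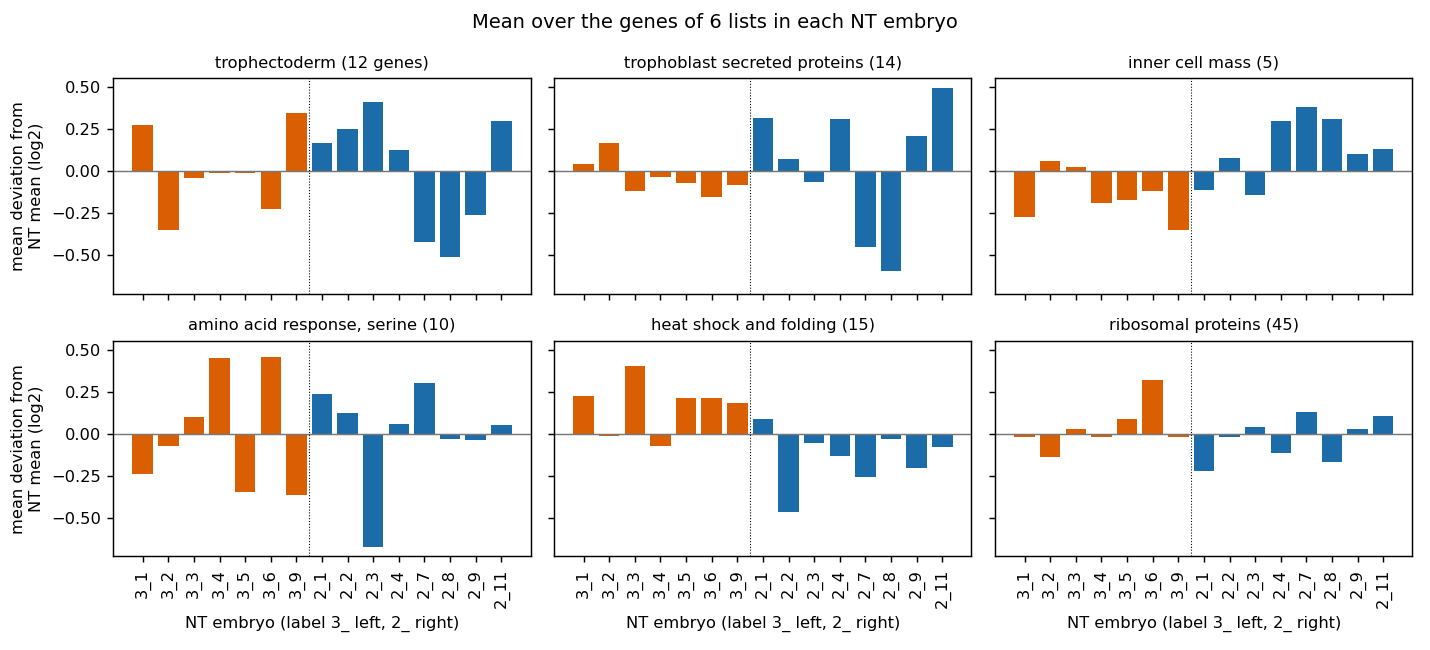
Mean over the measured genes of 6 lists in each NT embryo, as deviation from the NT mean (log2; orange, label 3_; blue, label 2_). Embryos 2_8 and 2_7 have the lowest bars for both trophoblast lists, for the trophectoderm in 2_8 largely through DSC2, and 2_3 the lowest for the amino acid response (-0.67).

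The amino acid response is a transcriptional programme, driven by ATF4, that raises amino acid synthesis and transport. It varied in 8 of 10 measured genes (beside 40.1% of all genes), with a median embryo SD of 0.432. PSPH, the phosphatase that completes serine synthesis, ran from -1.83 to 1.77 with a median of -0.20 in 3_ embryos, and from -2.29 to 0.64 with a median of 0.08 in 2_ embryos. Embryos 2_3, 3_5 (-1.83) and 3_9 (-1.12) were low and 3_4 (1.77) and 3_6 (1.39) high. DDIT3, SESN2, MTHFD2, ATF3, SHMT2, ATF4 and SLC3A2 also passed, while CEBPB and TRIB3 did not. The list mean was lowest in 2_3 (-0.67) and highest in 3_6 (0.45) and 3_4 (0.45).

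Immediate early and YAP target genes respond within a short time to growth factors or stretch. Of these, 9 of 14 passed (64.3%, beside 40.1% of all genes). ANKRD1 was -0.49 in 3_3, which gave 64.3% of its squared deviation, against a median of -3.98. EGR1 ran from -4.55 to -2.50 in 3_ embryos and from -3.52 to -1.59 in 2_ embryos. Cell cycle and replication genes passed in 8 of 12 (66.7%), with MCM2 first (embryo SD 0.41), and antioxidant genes in 9 of 19 (47.4%). Among the latter, glutathione reductase GSR was -0.79 in 3_5, against 0.89 to 2.40 in the other 14. DNA methylation and chromatin genes passed in 6 of 12 (50%), where DNMT3A (1.59 to 3.88, adjusted p = 0.0499) lay at the threshold.

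Ribosomal and mitochondrial genes had smaller embryo SDs. Of 45 ribosomal protein genes 11 passed, with a median embryo SD of 0.213 and none above 0.33, and of 45 genes of oxidative phosphorylation 13 passed, with a median of 0.231. Of the 22 proteasome genes 7 passed and of 33 translation factors 13. Of 14 imprinted genes, which are expressed from 1 parental copy, PHLDA2, GRB10 and CD81 passed and H19, IGF2R and IGF2 did not. Of 8 fibroblast and matrix genes VIM and COL1A2 passed, with embryo SDs of 0.24 and 0.22, and of 4 cumulus and granulosa genes none. In the interferon list IFI30 alone of 10 passed. Each of these counts is to be read beside the 40.1% of all genes.

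Constant genes kept to a narrow range in all 15 embryos. The 15 smallest SDs of embryo values lay between 0.104 and 0.139, in TCEA1, HDAC1, PSMD13, TAGLN, RBM17, EVA1B, NCOA2, TUBB6, KIAA0319L, TRAF7, ILK, MRPL17, PSENEN, ATP6AP1 and PLCL2. In 14 of them the arrays correlated below 0 over the embryos, and the spread of the means was smaller than the error SD (0.146 to 0.225). Choosing the smallest SD of the 2-array means favours genes whose arrays offset each other, so both traits are in part built in. The spread of these genes was at the limit of what the dye swap resolves. HDAC1, a histone deacetylase, ran from 1.36 to 1.74 and its NT mean minus that of the donor cells was 2.59. Its single arrays ran wider, from 1.125 (Cy3, sign turned) to 1.8935 (Cy5). The mitochondrial import protein TIMM23 ran from 3.61 to 4.14 (mean difference 3.53), and the ubiquitin ligase subunit RBX1 from 0.48 to 1.03 (1.81). CD44, a hyaluronan receptor of fibroblasts, ran from -2.11 to -1.50 (mean difference -2.65). The matrix gene THBS1 had -0.79 to -0.28, a mean difference of -1.37, so that genes far from the donor level included constant ones in both directions.

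Pairs among the 30 most variable genes were compared over the 15 embryos. None of 435 pairs passed adjustment (0%; 35, or 8.05%, had an unadjusted permutation p under 0.05). DSC2 and HKDC1 came nearest, with r = 0.85 (permutation p = 0.00017, adjusted 0.0739) and rho = 0.60 (p = 0.0194, adjusted 0.800). Without the 2 embryos farthest from the DSC2 median r was 0.74, and it was 0.69 within 3_ and 0.87 within 2_ embryos. DAPP1 and DSC2 had r = 0.80 (adjusted permutation p = 0.428) and rho = 0.36 (adjusted 0.849), and r was 0.23 without 2 embryos, so that the relation rested on those. SULT1E1 and TM7SF3 had r = 0.70 (adjusted permutation p = 0.395) and rho = 0.84 (adjusted 0.0826), with r = 0.69 without 2 embryos. PSPH and HMOX1 had r = 0.66 (adjusted permutation p = 0.395) and rho = 0.75 (adjusted 0.426), with 0.75 without 2 embryos, 0.91 within 3_ and 0.50 within 2_ embryos. MYO1D and FBXL20 had r = 0.67 (adjusted permutation p = 0.395) and rho = 0.22 (adjusted 0.870), and without 2 embryos r was -0.04. Of the 10 pairs of largest r, the other 5 were DAPP1 with HKDC1 (0.71) and OCIAD2 (0.65), GIPC2 with SULT1E1 (0.68), and H2BC21 with DSC2 (-0.66) and PLAU (-0.64), with adjusted permutation p of 0.395 each. Without 2 embryos these were 0.26 and 0.39 for DAPP1 with HKDC1 and OCIAD2, 0.30 for GIPC2 with SULT1E1, and -0.41 and -0.43 for H2BC21 with DSC2 and PLAU.

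Pairs within the gene lists were compared next, for members past the F test, a choice made after the values were seen. Of 486 pairs, 24 (4.94%) passed adjustment over the 486. Ribosomal protein genes gave 10 of them out of 55, led by RPL35A and RPL7A with r = 0.89 (adjusted permutation p = 0.00729) and rho = 0.81 (adjusted 0.0275), and r = 0.81 without 2 embryos. Their list mean was highest in 3_6 (0.32) and lowest in 2_1 (-0.22). Ribosomal protein genes have many near-identical copies in the genome, and whether the probes also read those was not tested.

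The heat shock list gave 4 more, the trophectoderm and trophoblast lists 2 each and 6 other lists 1 each. NDUFV3 and UQCRQ, subunits of respiratory complexes, had r = 0.85 (adjusted permutation p = 0.0126) and rho = 0.81 (adjusted 0.0316). PSPH and SESN2, both targets of ATF4, had r = 0.81 (adjusted permutation p = 0.0156) and rho = 0.66 (adjusted 0.156), with 0.89 within 3_ and 0.82 within 2_ embryos. KRT18 and DSC2 had r = 0.86 (adjusted permutation p = 0.0306) and rho = 0.69 (adjusted 0.131), yet 0.26 within 3_ and 0.98 within 2_ embryos. PAG11 and PAG12 had r = 0.87 (adjusted permutation p = 0.00729) and rho = 0.88 (adjusted 0.0146), again 0.48 within 3_ and 0.96 within 2_ embryos. CASP6, an executioner caspase, and BAD, a protein that promotes cell death, moved in opposite directions with r = -0.76 (adjusted permutation p = 0.0130) and rho = -0.85 (adjusted 0.0146). Without the 2 embryos farthest from the median, r was 0.83 for NDUFV3 and UQCRQ, 0.71 for PSPH and SESN2, 0.78 for KRT18 and DSC2, 0.85 for PAG11 and PAG12 and -0.73 for CASP6 and BAD.

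The labels 3_ and 2_ were then compared. No gene of 4372 differed after adjustment with limma (0%; 408, or 9.33%, had an unadjusted p under 0.05), and the smallest adjusted p was 0.130. PPP2R5C, a regulatory subunit of protein phosphatase 2A, ran from -3.93 to -2.76 with a median of -3.16 in 3_ embryos, and from -2.91 to -1.64 with a median of -1.97 in 2_ embryos. The difference was -1.11 ± 0.20 (SE, adjusted p = 0.130), and the values overlapped between the labels. It passed with quantile normalisation (adjusted p = 0.0326), with a common median absolute deviation (0.0218) and without embryo 2_4 (0.00998). SHROOM1, an actin-binding protein, ran from 0.11 to 0.97 in 3_ embryos and from -1.69 to -0.16 in 2_ embryos, without overlap (1.11 ± 0.21, adjusted p = 0.130). It did not pass the F test (adjusted p = 0.193), and its 2 probes correlated with r = 0.34. CNPY4, one of the 30 most variable genes, had a mean of -1.54 ± 0.68 in 3_ and 0.19 ± 0.76 in 2_ embryos (SD, n = 7 and 8; limma adjusted p = 0.130). IFNAR2, a subunit of the type I interferon receptor, ran from -4.53 to -3.97 in 3_ embryos and from -3.96 to -3.24 in 2_ embryos (limma adjusted p = 0.148). It did not pass the F test (adjusted p = 0.498), with r = -0.02 between the arrays over embryos. Groups without overlap were found in 8 of the 4372 genes (0.183%).

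Heat shock and folding genes, which keep proteins in shape, were singled out of 25 lists for their label differences, as a description. Of 15 measured genes, 8 had an unadjusted limma p under 0.05, each higher in 3_ embryos, where 243 of all 4372 genes (5.56%) did. Their median difference was 0.41, beside 0.03 over all genes, and none passed adjustment (adjusted p from 0.173 to 0.531 in the 8). The members are not independent, since 4 pairs of them passed in the comparison of pairs above. HSPA8, the constitutive HSP70, ran from 1.31 to 1.82 with a median of 1.66 in 3_ embryos, and from 0.67 to 1.28 with a median of 0.92 in 2_ embryos. Its groups did not overlap, the difference was 0.64 ± 0.14 (limma, SE), and its 2 probes correlated with r = 0.94. HSP90B1, the HSP90 of the endoplasmic reticulum, ran from -0.71 to 0.97 in 3_ embryos and from -1.95 to -0.34 in 2_ embryos (1.11 ± 0.31, adjusted p = 0.412). DNAJB1, a co-chaperone induced by heat, followed (0.69 ± 0.20, adjusted p = 0.464), while the mitochondrial HSPD1 (-0.05 ± 0.39) and HSP90AB1 (-0.05 ± 0.22) had near-equal means.

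**Figure D4:**
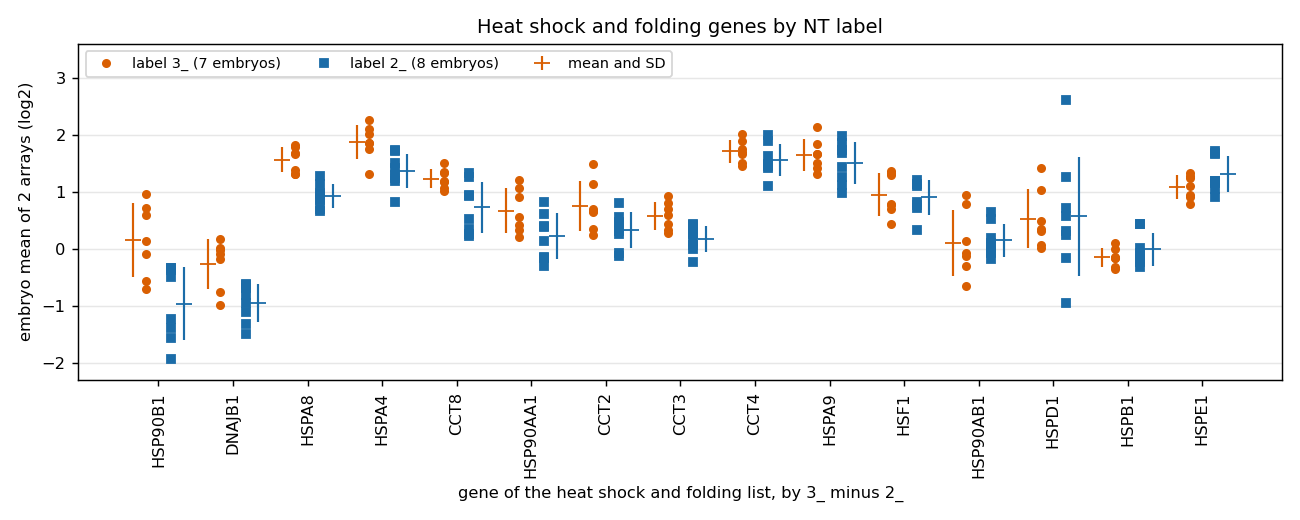
The 15 heat shock and folding genes in NT embryos (log2; circles, 7 embryos of label 3_; squares, 8 of label 2_; bars, mean and SD), ordered from left by the difference 3_ minus 2_. HSPA8 is without overlap between labels, HSP90B1 has the largest difference (1.11), and CCT4, HSPA9 and those right of them overlap widely.

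Over the 1717 genes that passed the F test among 4114 measured in all 15 embryos, embryos of the same label correlated slightly more than embryos of different labels. The correlation of deviations, taken across the dyes, averaged -0.03 within and -0.06 between labels, a difference of 0.031 (exact permutation test over 6435 assignments, 2-sided p = 0.0291). Deviations were taken from the mean of these same 15 embryos, so that negative averages between different embryos are built in. Leaving out 1 embryo gave p from 0.00874 (without 2_8) to 0.145 (without 2_2), and p exceeded 0.05 without 2_2, 2_3, 2_4, 2_7, 3_3, 3_5 or 3_9. The deposited medians of the Cy3 arrays averaged -0.74 ± 0.38 in 3_ and -0.24 ± 0.32 in 2_ embryos (SD, n = 7 and 8; exact permutation p = 0.0138, adjusted over 7 array measures 0.0968). The part of this shift in the label results was not tested. The most alike pair was 2_8 and 2_7 (r = 0.17), the least alike 2_1 and 3_6 (-0.22).

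Variation was spread over many components. The first 3 principal components held 13.3%, 11.8% and 9.46% of the variance, where 14 equal ones would hold 7.14% each. Embryo 3_9 had the largest score on the first and was the most extreme embryo in 268 of the 1717 genes (15.6%), followed by 3_5 (175) and 2_11 (173), and 2_4 was so in 44. The second component set 2_8 and 2_7 against 2_11. Embryo 3_9 also had the lowest deposited Cy3 median (-1.45) and the widest arrays of the 15 (median absolute deviations 0.753 and 0.764), and the part of these in its values was not tested. Without it, 1600 genes varied.

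The distance of an embryo from the mean of its kind, which leaves out error not shared by its 2 arrays, ran from 0.204 in 2_4 to 0.452 in 3_9. It averaged 0.352 ± 0.069 in NT, against 0.384 ± 0.067 in AI and 0.338 ± 0.156 in IVF embryos (SD, n = 15, 14 and 15). In embryo IVF 5 the estimate was not above 0 and was set to 0, which enters the IVF mean and SD. The difference from AI was -0.032 (permutation test, 2-sided p = 0.226), and that from IVF 0.015 (permutation p = 0.746), both within the spread over embryos. Between the labels it averaged 0.366 ± 0.066 in 3_ and 0.341 ± 0.074 in 2_ embryos (exact permutation p = 0.504).

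**Figure D5:**
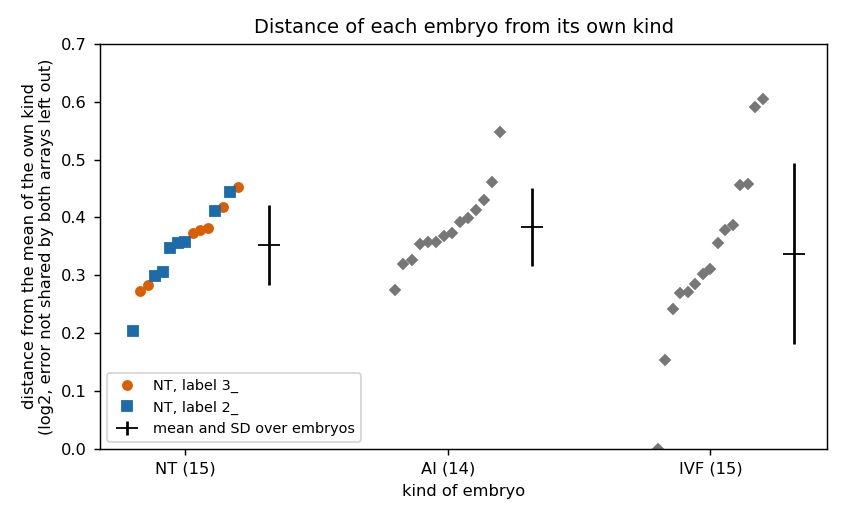
Distance of each embryo from the mean of its own kind over 4260 genes (log2) in 15 NT, 14 AI and 15 IVF embryos, sorted within a kind; bars give mean and SD over embryos. NT embryos lie between 0.204 and 0.452, inside the range of the IVF embryos (0 to 0.604). The 0 belongs to IVF 5, whose estimate was not above 0 and was set to 0, and the next lowest is 0.154.

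Gene by gene, the spread of NT embryos differed from that of AI embryos in 2 of 4260 genes (0.0469%) and from that of IVF embryos in 3 (0.0704%; limma on absolute deviations, adjusted p under 0.05), all smaller in NT. PRADC1, a secreted protease-associated protein, had an SD of 0.252 in NT, against 1.07 in AI and 0.987 in IVF embryos (adjusted p = 0.00225 and 0.0403). CAV1, the coat protein of caveolae, had 0.265 in NT and 1.01 in AI embryos (adjusted p = 0.0191), and lay between -5.55 and -4.76 in NT, against -5.34 and -2.17 in AI embryos. POLR1H, a subunit of RNA polymerase I, had 0.275 in NT and 1.12 in IVF embryos (adjusted p = 0.0131), and TPRG1L 0.162 and 0.476 (adjusted p = 0.0403). These SDs include the dye-swap error. With the error taken out, the embryo SD of TPRG1L was only 0.059 in NT and 0.175 in IVF embryos. For POLR1H it was 0.216 and 1.11. With deviations taken from the median of the kind no gene differed in either comparison. Larger spread in NT did not pass for any gene. TCIM came near, with an SD of 1.26 in NT and 0.294 in IVF embryos (adjusted p = 0.121), as did DRAP1 with 0.742 in NT and 0.298 in AI embryos (adjusted p = 0.107). DRAP1 did not pass the F test in NT embryos (adjusted p = 0.0608), with an embryo SD of 0.561 and an error SD of 0.484. RNASET2, a lysosomal ribonuclease, had 0.451 in NT and 0.132 in AI embryos (adjusted p = 0.103).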

How the data were processed

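The authors deposited 1 log2 ratio for each spot of 92 arrays; no header or label gives scanner, background correction, normalisation or direction. Per the labels' protocols, Trizol RNA underwent 3 rounds of linear amplification in embryos and donor cells and 2 in the reference. No intensities were used, and the number of arrays limits the precision. Values above 16 (2657 cells) were set to missing, arrays centred on their median, Cy3 arrays turned in sign, and the 2 spots of each of 8208 probes averaged. Probes of 1 symbol were averaged after taking out each probe's mean per dye, which gave 4452 genes. The platform annotation names 1 gene for 5598 probes, and 5591 of these were found among RefSeq symbols.

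The F test sets the variance of embryo means over the variance of half-differences, moderated with limma 3.58.1 (R 4.3.3), in genes with at least 12 embryos. Labels, with at least 5 embryos each, were compared with limma on embryo means, and spreads with limma on absolute deviations in 1 fit of NT, AI and IVF embryos. All p-values were adjusted by Benjamini-Hochberg over all genes or pairs named, at 0.05. Pairs and distances used 100000 resamples. The scripts were tested on simulated data.

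Named genes are the 30 of largest embryo SD past the test with all 15 embryos, the 15 of smallest SD (also among genes at least 1 from the donor cells), 5 of smallest p per direction for labels and spreads, up to 3 per list, the 10 pairs of largest r, and 16 chosen by hand, of which XIST and ACTB are not analysed here. Members and lists were chosen with earlier results of these data known. Alternatives were other scalings, 1 probe per gene, complete genes, other error models, single dyes, the replicate number as a block and leaving out each embryo. Label numbers shared by 3_ and 2_ (5 numbers) did not pair embryos: same-numbered embryos correlated between -0.06 and 0.03. P-values of the F test set the spread between embryos against the error between their arrays. Nothing says that embryos came from separate transfers or donors, so p-values of the other tests measure the spread between these embryos.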

Additional observations from a re-analysis of the deposited data

Results flagged for a closer look

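Of 74 groups of values checked for a single far embryo (the 30 genes and 7 array measures, within each label), 8 held one, where chance gives about 1 in 20. TEK stood at 1.82 in 3_2, against -3.35 to -2.37 in the other 3_ embryos, and OCIAD2 at -3.69 in 3_6, against -1.71 to -0.67. Among 2_ embryos, 2_8 stood apart for DAPP1 (-2.31, against 1.01 to 3.53), DSC2 (-2.68, against 0.41 to 2.44) and TCIM (-0.89, against -4.93 to -3.45). FBXL20 was -1.41 in 2_11, against 0.44 to 1.91, EPB41L3 was 0.73 in 2_1, against -2.59 to -1.77, and PSPH was -2.29 in 2_3, against -0.26 to 0.64. The genes were chosen for large spread, so that more flags than chance gives are built into this count.

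The spread differed between kinds in a test of the difference itself for 4 genes. The mean absolute deviation of PRADC1 in NT minus AI embryos was -0.83 and in NT minus IVF embryos -0.65. For CAV1 it was -0.67 in NT minus AI embryos. For POLR1H it was -0.81 and for TPRG1L -0.28 in NT minus IVF embryos. All passed limma's test over all genes, and none did with deviations from the median. The deviations include the dye-swap error.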

How the results depend on the processing

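The count of genes that vary among NT embryos kept within 1.5 times of 1744 in all alternatives but one: with arrays as deposited, without centring, it was 202, of which 198 were also called after centring. Without 1 embryo it ran from 1552 to 1824. For 3_ against 2_, PPP2R5C alone passed, giving 1 gene with quantile normalisation (adjusted p = 0.0326), 1 with a common median absolute deviation (0.0218) and 1 without embryo 2_4 (0.00998); leaving out 1 embryo gave 0 to 1. The replicate block gave 0 genes (307 at unadjusted p under 0.05), and the same embryos without it 0 (318), a setting chosen after seeing the data. No embryo correlated best with its own number. For spread against AI the count was 1 with a common median absolute deviation and 0 with deviations from the median (204 at unadjusted p under 0.05). Against IVF it was 1 with arrays as deposited, 1 with 1 probe per gene and 0 from the median (193). The cause was not tested. Distances from the own kind passed under no setting; with arrays as deposited the difference was 0.00577 from AI and -0.102 from IVF embryos, and with complete genes -0.000976 from IVF embryos. No intensities were used, so that dim and bright spots could not be told apart. No pair of the 30 genes passed under any setting, each left-out embryo included (0). Of the 30 genes, ZDHHC20 lost its call with arrays as deposited, and AP1S3 with the plain F test, without 2_1 and without 3_6. The trophectoderm mean of 2_8 without DSC2, added after seeing the data, is given above. All other calls of the 30 kept under the alternatives run.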

Other observations

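Of 9 cholesterol and lipid synthesis genes, not described above, 6 passed the F test (66.7%, beside 40.1% of all genes), among them MSMO1, a sterol oxidase, at 1.68 in 2_3 against a median of -0.37, and ACSL1, which activates fatty acids, at -2.72 in 2_9 against a median of -0.59. Of 14 genes of glycolysis and glucose transport 5 passed (35.7%), near the 40.1% of all genes, with LDHA from -2.46 in 2_8 to -0.90 in 2_3, and SLC2A3, a glucose transporter whose 2 probes correlated with r = 0.92, from 0.75 in 2_7 to 2.66 in 2_1.

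All pairs of the 576 genes past the F test with an embryo SD of at least 0.5 were also correlated, a choice made after seeing the data. None of the 165600 pairs passed adjustment (0%), and with 100000 resamples the smallest p they can give is 1e-05, so that a few pairs could not have passed. The values of the strongest are therefore a description. FOSB, an immediate early gene, and SLC7A7, an amino acid transporter, had r = 0.93 (permutation p = 2e-05) and rho = 0.86 (p = 7e-05), and 0.69 without 2 embryos. FABP5, a fatty acid carrier, and POLR1C, a polymerase subunit, ran against each other with r = -0.87 (permutation p = 3e-05) and rho = -0.86 (p = 6e-05), and -0.90 without 2 embryos. CMTR1 and FRYL had r = 0.95 and rho = 0.94 (permutation p = 1e-05 each), and 0.94 without 2 embryos. MSMO1 and NFATC4 had r = 0.97 and rho = 0.92 (permutation p = 1e-05 each), with 0.91 without 2 embryos, and their probes lie side by side in the order of the table. Among 60 pairs of neighbouring probes of such genes the median r was 0.07, and 2 (3.33%) exceeded 0.8. Over all pairs the median was 0.02, and 153 of 165600 (0.0924%) exceeded 0.8 in size. Whether neighbouring spots share signal was not tested.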
